A study of Mus musculus with 6 samples.

Results

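The clustered histone genes are the core and linker histone genes that lie in the Hist1, Hist2, Hist3 and Hist4 clusters of the mouse genome, and they were examined on 6 arrays of cultured microglia. A gene was a member if a probe set of the array was assigned to it alone and its name began with Hist1h, Hist2h, Hist3h or Hist4h. No symbol of the platform's table begins with those letters, because the table holds the newer names. The older names were therefore read by gene number from a RefSeq gene table, which names 70 such genes. Of these, 31 had a probe set of their own, 1 each, among the 19938 genes that had a single-gene probe set. Members are called here by the newer symbol, with the older name at first mention. They comprised 5 linker histone H1 genes, 5 H2A, 11 H2B, 3 H3 and 7 H4 genes. By cluster, 23 belonged to Hist1 on chromosome 13, 4 to Hist2 on chromosome 3, 3 to Hist3 on chromosome 11 and 1 to Hist4 on chromosome 6. A further 27 probe sets were listed for several genes of which at least 1 was a clustered histone gene, and they are described apart.

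The arrays compared primary microglia of wild-type C57BL/6J mice (3 arrays) with those of fosB-null mice (3 arrays), homozygous for the null allele fosBG. The latter came from intercrosses of fosB+/G mice after backcrossing to C57BL/6J up to generation N20, and the wild-type controls were C57BL/6J mice. Both genotypes were handled alike, with cortical tissue taken from pups aged 2 days, microglia collected after 10 days in culture, replated for 24 h and harvested. The labels number the arrays of each group from 1 to 3 as biological replicates and do not say which animals or litters a number stands for, so the p-values measure the spread between these arrays. Arrays with the same number tracked each other closely, and each difference is therefore given also by replicate number, fosB-null minus wild-type, as pair 1, pair 2 and pair 3. All values are log2 signal as deposited, and a difference of 1 is a doubling of signal. On the Fosb probe set the wild-type arrays read 8.01, 8.14 and 7.92 and the fosB-null arrays 7.82, 8.05 and 7.83, a difference of -0.12 (SE 0.10). Those groups overlapped, and which exons its probes read was not analysed here, so this reading does not check the genotype. Microglial markers (9 of the 10 listed were measured) lay between the 64.8th and the 99.8th percentile of signal, with a median at 98.2, and their summed log2 signal ranged from 109.2 to 110.8 on the wild-type and from 109.9 to 110.9 on the fosB-null arrays.

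Histones package DNA into nucleosomes, each a core of H2A, H2B, H3 and H4 around which the DNA is wound, with linker histone H1 bound where the DNA enters and leaves. Most of the clustered genes are replication-dependent: they are transcribed mainly in S phase, when newly made DNA needs new histones, and so their messenger RNA follows the share of dividing cells. Their transcripts carry no introns and usually end in a stem-loop in place of a poly(A) tail, which is bound by the stem-loop binding protein Slbp and cut with the help of the U7 small nuclear RNP. Variants encoded outside the clusters are mostly made throughout the cell cycle. Microglia are the resident macrophages of the brain and can divide in culture.

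Promoter elements of these genes sit just upstream of the transcript start, and RefSeq (GRCm38.p6) promoters were found for 26 of the 31 members. The 130 bases that precede the start are shown for H2ac4 (Hist1h2ab), H2bc3 (Hist1h2bb) and H2bc14 (Hist1h2bm), the core histone genes with the widest differences in pair 1, with the octamer ATTTGCAT, the site named for POU-domain proteins, in capitals on either strand. They lie at chr13:23750958-23751087, chr13:23746604-23746733 and chr13:21721914-21722043, all on the plus strand, and the octamer begins at base -129, -90 and -25 relative to the start.
H2ac4: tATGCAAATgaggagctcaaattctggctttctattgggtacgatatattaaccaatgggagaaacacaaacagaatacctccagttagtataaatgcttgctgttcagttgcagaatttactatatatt
H2bc3: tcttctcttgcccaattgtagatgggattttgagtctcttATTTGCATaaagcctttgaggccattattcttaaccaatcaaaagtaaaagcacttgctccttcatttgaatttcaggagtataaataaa
H2bc14: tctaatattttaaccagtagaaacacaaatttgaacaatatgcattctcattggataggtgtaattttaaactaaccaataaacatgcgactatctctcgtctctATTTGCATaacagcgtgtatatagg

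The same stretch is shown for 4 H1 genes, because members of this class differed in opposite directions, with the letters AAACACA of the H1 box in capitals. H1f5 (Hist1h1b) lies at chr13:21780626-21780755 on the minus strand, and H1f1 (Hist1h1a) at chr13:23763538-23763667, H1f2 (Hist1h1c) at chr13:23738677-23738806 and H1f3 (Hist1h1d) at chr13:23554902-23555031 on the plus strand. The H1 box begins at base -117 in H1f5, -112 in H1f2 and -122 in H1f3, and these letters are not in the window of H1f1.
H1f5: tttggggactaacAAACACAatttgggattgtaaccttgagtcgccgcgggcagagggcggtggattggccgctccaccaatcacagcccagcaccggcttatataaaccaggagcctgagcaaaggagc
H1f1: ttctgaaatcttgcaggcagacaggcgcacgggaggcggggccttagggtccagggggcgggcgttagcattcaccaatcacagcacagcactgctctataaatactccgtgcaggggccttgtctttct
H1f2: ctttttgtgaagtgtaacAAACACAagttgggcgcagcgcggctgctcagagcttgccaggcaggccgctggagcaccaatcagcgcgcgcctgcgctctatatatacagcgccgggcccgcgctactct
H1f3: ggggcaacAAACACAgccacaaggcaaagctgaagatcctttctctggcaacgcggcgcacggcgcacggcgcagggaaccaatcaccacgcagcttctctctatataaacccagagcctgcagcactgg

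Searched over the 250 bases before the start and on both strands, the octamer was present in 4 of 5 H2A and 5 of 8 H2B promoters and in none of the 5 H1, 2 H3 and 6 H4 promoters. It is in 1.60% of the 32851 promoters of the same length. The H1 box was in 4 of 5 H1 promoters, and also in 2 H2A and 2 H2B promoters, H2ac4 and H2bc14 among them, against 6.25% of all promoters. The letters CCAAT were in 21 of 26 member promoters and in 33.8% of all, and TATAAA in 15 of 26 and 12.4% of all. An E2F site spelled TTTGGCGC was in none of the 26 and in 0.417% of all. The promoter entries run from 250 bases before the start to 50 after it. Those of H2ac8 and H2bc8 share 279 bases on opposite strands, and those of H2bc1 and H2ac1 share 220, so their matches are not independent. H1f5 and H1f2 both hold the H1 box at nearly the same distance from the start. The part of any motif in the differences between genotypes was not tested.

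**Figure D1:**
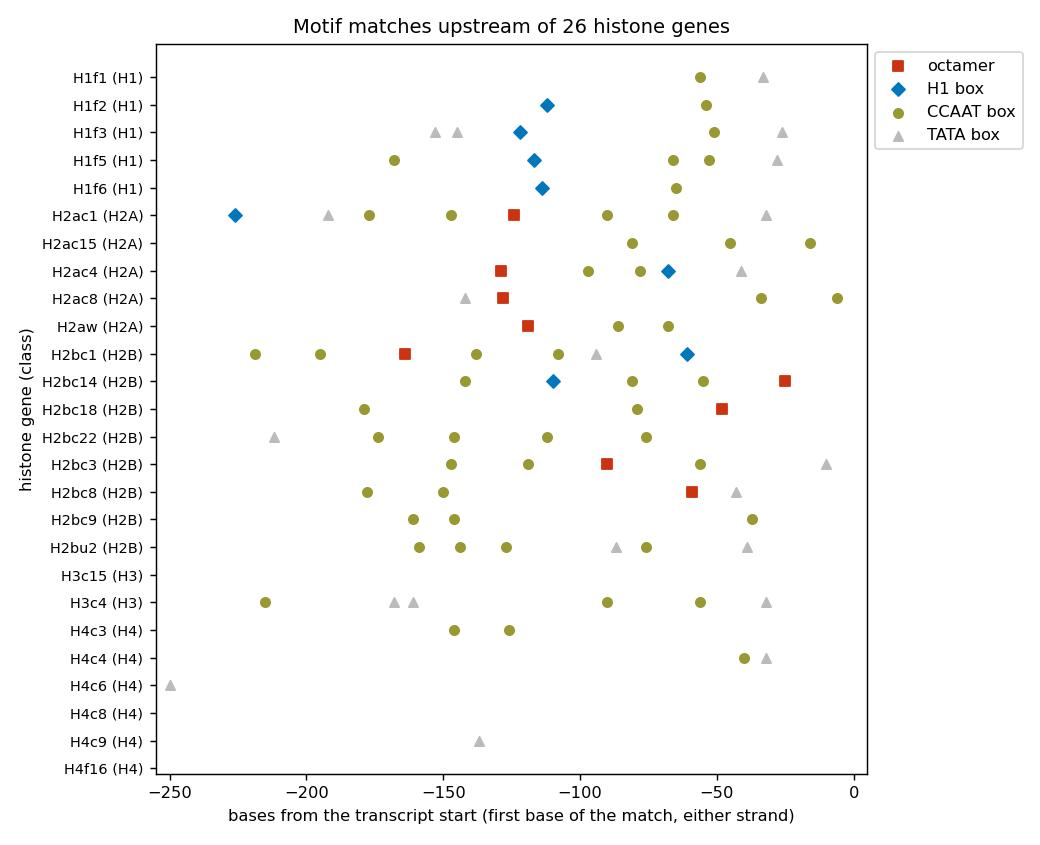
Positions of motif letters upstream of the 26 members with a RefSeq promoter. The x axis is the distance in bases of the first base of each match from the transcript start and each row is 1 gene with its class; octamer matches (squares) lie in H2A and H2B rows, and H1 box matches (diamonds) lie between bases -122 and -112 in 4 of the 5 H1 rows.

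The comparison of genotypes asks how loss of fosB, which encodes the AP-1 transcription factors FosB and ΔFosB, affects microglial gene expression. No clustered histone gene passed the test: in limma's moderated fit with Benjamini-Hochberg adjustment over 23410 probe sets, 0 of 31 had an adjusted p under 0.05, beside 0.00427% of all tested probe sets, and the adjusted p was 1 for each. None had an unadjusted p under 0.05 either, beside 0.722% of all, the lowest being 0.063. With the replicate number as a fixed block the count of unadjusted p under 0.05 stayed 0, beside 2.31% of all. With that number as a random effect it was 10 of 31, 6 higher and 4 lower in fosB-null, beside 9.63% of all, whereas the count at an adjusted p under 0.05 was 0 beside 0.201%. The lowest adjusted p in the random-block limma fit was 0.20, for H1f1. In 29 of the 31 members the difference between group means was smaller than the range of the 3 wild-type arrays. The exceptions were H3c15 (Hist2h3c2) and H3c4 (Hist1h3d). The share of all probe sets with such a difference was not computed, so this count is a description.

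Differences between the groups were unequal in sign and by replicate number. The group mean was above wild-type in 22 members and below in 9, with a median difference of 0.03, and of all tested probe sets 7243 were above, 9657 below and 6510 equal, with a median of 0. By replicate number, 20 members were above, 6 below and 5 identical in pair 1, 17, 11 and 3 in pair 2, and 9, 11 and 11 in pair 3. The mean difference over the 31 genes was 0.15 in pair 1, 0.02 in pair 2 and 0.01 in pair 3. Identical values within a pair were common over the whole table, at 62.3%, 54.7% and 56.0% of tested probe sets in pairs 1, 2 and 3. Members above wild-type in all 3 pairs were H1f1, H2ac15 (Hist1h2ak) and H4c4 (Hist1h4d), 3 of 31 beside 2.2% of all probe sets, and H3c4 was the 1 member below in all 3, beside 5.57%. H3c4 was also the 1 member whose groups did not overlap, beside 1.12% of all. On bulk arrays, a different share of cells in S phase and a different amount of histone RNA per cell cannot be told apart.

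**Figure D2:**
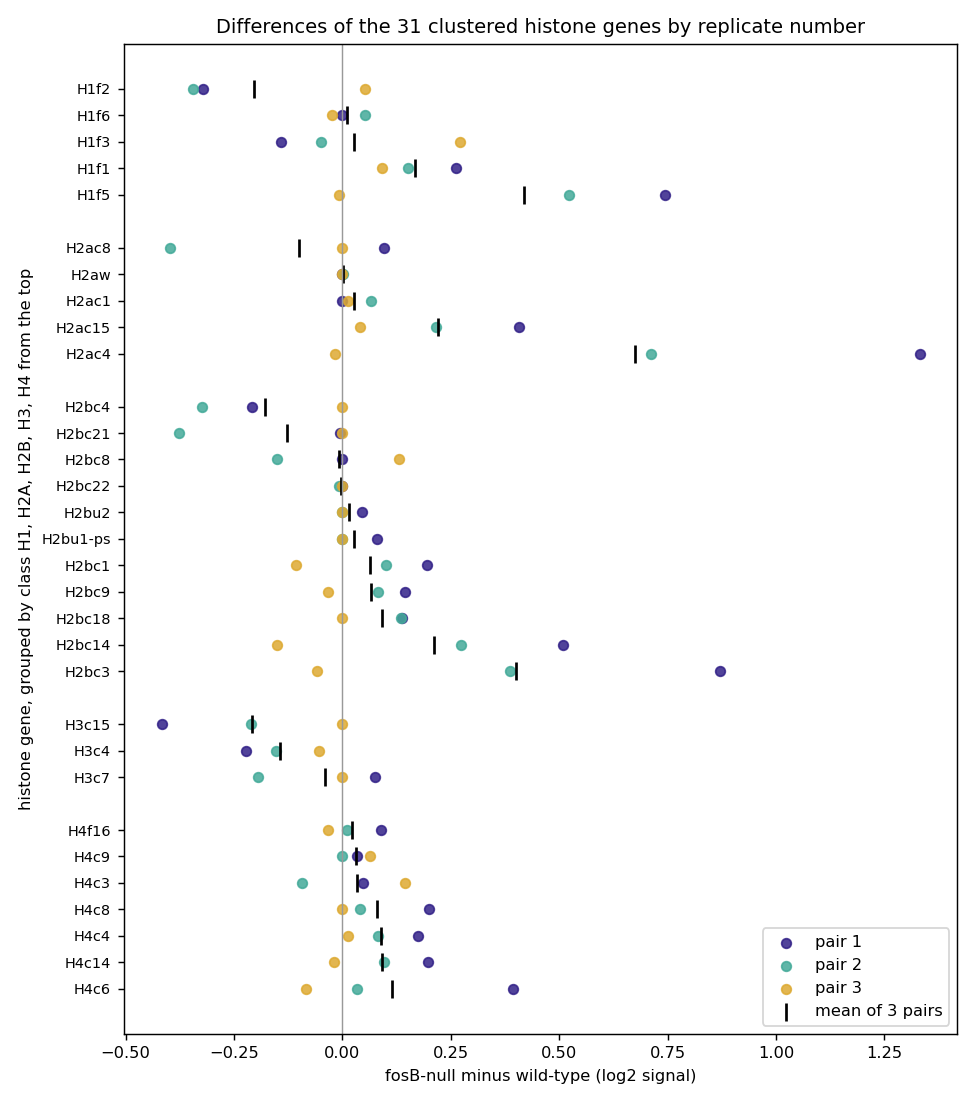
Difference of each of the 31 members by replicate number. The x axis is fosB-null minus wild-type in log2 signal, each row a gene grouped by histone class, points the 3 pairs and black ticks their mean; the widest points are pair 1 of H2ac4 at 1.33 and of H2bc3 at 0.87, and pair 3 stays between -0.15 and 0.27.

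A few members carried most of the size. Differences of at least 0.2 above wild-type in both pairs 1 and 2 were seen in 5 members, H2ac4, H2bc3, H1f5, H2bc14 and H2ac15, beside 1.18% of all probe sets. Differences of at least 0.2 below in both pairs were seen in 3, H1f2, H2bc4 (Hist1h2bc) and H3c15, beside 0.931%. This size and the choice of pairs were set after the values were seen, so the counts are descriptions. In pair 3 the 5 genes of the first set lay between -0.15 and 0.04 and the 3 of the second between 0.00 and 0.05.

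**Figure D3:**
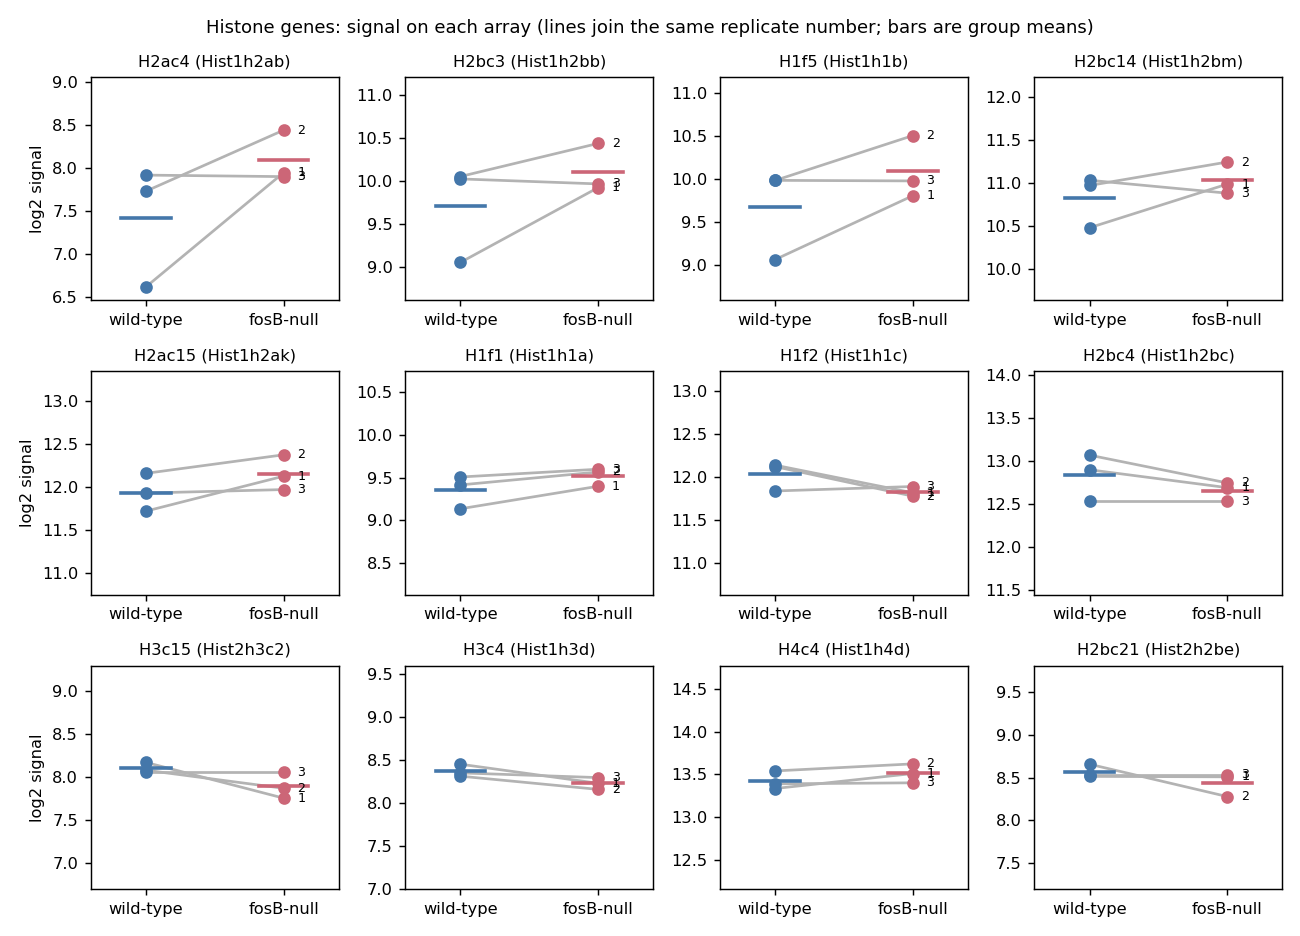
Log2 signal of 12 members on each array. In each panel the x axis is the genotype, the y axis is log2 signal with the same span in every panel, centred on the gene's mean, grey lines join arrays of the same replicate number (marked 1 to 3) and bars are group means; wild-type replicate 1 is the lowest array for H2ac4, H2bc3, H1f5 and H2bc14, and not for H1f2, H2bc4 and H3c15.

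Among the linker histones, H1f5 and H1f2 lay on opposite sides of wild-type in pairs 1 and 2. H1f5, which encodes H1.5, read 9.06, 9.98 and 9.99 on the wild-type and 9.81, 10.51 and 9.98 on the fosB-null arrays. Wild-type replicate 1 was the lowest array and fosB-null replicate 2 the highest, and the groups overlapped. The differences were 0.74, 0.52 and -0.01 by pair, with a mean of 0.42 (SE 0.29, limma adjusted p = 1). H1f2, which encodes H1.2 and is also known to give polyadenylated messenger RNA in differentiated cells, read 12.14, 12.12 and 11.84 in wild-type and 11.82, 11.78 and 11.89 in fosB-null. The first 2 wild-type arrays lay above all the others, and wild-type replicate 3 fell within the range of the fosB-null arrays. Its differences were -0.32, -0.34 and 0.05, with a mean of -0.20 (SE 0.10, limma adjusted p = 1).

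H1f1, which encodes H1.1, read 9.14, 9.41 and 9.51 in wild-type and 9.40, 9.57 and 9.60 in fosB-null. Each fosB-null array was above its wild-type partner, by 0.26, 0.15 and 0.09, and the groups overlapped. The mean difference was 0.17 (SE 0.11). H1f3, which encodes H1.3, had differences of -0.14, -0.05 and 0.27 around a mean of 0.03 (SE 0.18), the widest pair 3 value among all members and of the opposite sign to its other pairs. H1f6 (Hist1h1t), the testis-specific H1t, differed by 0.00, 0.05 and -0.02.

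The H2A members ranged from the widest difference of all 31 to none. H2ac4 read 6.61, 7.73 and 7.92 in wild-type and 7.94, 8.44 and 7.90 in fosB-null. Wild-type replicate 1 was the lowest array and fosB-null replicate 2 the highest, and fosB-null replicate 3 lay just under wild-type replicate 3. The differences were 1.33, 0.71 and -0.02, the first a 2.52-fold signal, with a mean of 0.67 (SE 0.34, limma adjusted p = 1). H2ac15 read 11.72, 12.16 and 11.93 in wild-type and 12.13, 12.38 and 11.97 in fosB-null. Each fosB-null array was above its partner, by 0.41, 0.22 and 0.04, while the groups overlapped, and the mean was 0.22 (SE 0.15). H2ac8 (Hist1h2ae), a dim probe set at the 12.6th percentile of signal, differed by 0.10, -0.40 and 0.00. The testis gene H2ac1 (Hist1h2aa) differed by 0.00, 0.07 and 0.01, and H2aw (Hist3h2a), the H2A gene of the Hist3 cluster, differed by 0.00 in each pair.

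Of the 11 H2B members, 7 had a mean above wild-type and 4 below. H2bc3 read 9.05, 10.05 and 10.03 in wild-type and 9.92, 10.44 and 9.97 in fosB-null. Again wild-type replicate 1 was the lowest array and fosB-null replicate 2 the highest, with overlap between the groups. Differences were 0.87, 0.39 and -0.06, with a mean of 0.40 (SE 0.29). H2bc3 and H2ac4 are neighbours on chromosome 13, the 47th and 48th of the Hist1 genes in RefSeq order, and both encode core histones of the same dimer. H2bc14 read 10.48, 10.97 and 11.03 in wild-type and 10.99, 11.24 and 10.88 in fosB-null. FosB-null replicate 3 was below its partner, and the differences of 0.51, 0.27 and -0.15 gave a mean of 0.21 (SE 0.17).

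H2bc4, which like H1f2 is known to give polyadenylated transcripts, read 12.90, 13.07 and 12.53 in wild-type and 12.69, 12.75 and 12.53 in fosB-null. Both fosB-null replicates 1 and 2 were below their partners and the third pair was identical, while the groups overlapped. Differences of -0.21, -0.32 and 0.00 gave a mean of -0.18 (SE 0.14). H2bc21 (Hist2h2be) of the Hist2 cluster, another gene with polyadenylated forms, read 8.51, 8.66 and 8.53 in wild-type and 8.51, 8.28 and 8.53 in fosB-null, so that its mean of -0.13 (SE 0.09) came from pair 2. H2bc18 (Hist2h2bb) differed by 0.14, 0.13 and 0.00. The testis gene H2bc1 (Hist1h2ba) differed by 0.20, 0.10 and -0.11, and the Hist3 genes H2bu2 (Hist3h2ba) and H2bu1-ps (Hist3h2bb, named as a pseudogene) by at most 0.08 in any pair.

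All 3 H3 members with a probe set of their own had a mean below wild-type, with a class median of -0.14. The 10 brighter probe sets listed for 12 H3 genes each, described below, had means above wild-type. H3c15, H3c4 and H3c7 are themselves also listed on probe sets shared by several genes. H3c15 of the Hist2 cluster read 8.17, 8.08 and 8.05 in wild-type and 7.75, 7.86 and 8.05 in fosB-null. The first 2 fosB-null arrays lay below all wild-type arrays and the third pair was identical. Differences of -0.42, -0.21 and 0.00 gave a mean of -0.21 (SE 0.09, limma adjusted p = 1), the lowest unadjusted p of the 31. H3c4 read 8.45, 8.31 and 8.35 in wild-type and 8.23, 8.16 and 8.30 in fosB-null. Every fosB-null array was below every wild-type array, by 0.22, 0.15 and 0.05 within pairs, with a mean of -0.14 (SE 0.07, limma adjusted p = 1). H3c7 (Hist1h3f), at the 4.78th percentile of signal, differed by 0.08, -0.20 and 0.00.

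The 7 H4 members, whose genes encode the same protein, all had a mean above wild-type, by 0.02 to 0.11, with a class median of 0.08. H4c4 read 13.34, 13.54 and 13.39 in wild-type and 13.51, 13.62 and 13.40 in fosB-null. Each fosB-null array was above its partner, by 0.17, 0.08 and 0.01, and the groups overlapped (mean 0.09, SE 0.09). H4c6 (Hist1h4f) differed by 0.39, 0.03 and -0.08, H4c14 (Hist2h4) by 0.20, 0.09 and -0.02, H4c8 (Hist1h4h) by 0.20, 0.04 and 0.00, and H4f16 (Hist4h4), the Hist4 gene, by 0.09, 0.01 and -0.03. In each of these 4 genes pair 1 was the widest. The other 5 members, H2bc8, H2bc9, H2bc22, H4c3 and H4c9, had means between -0.01 and 0.07, and none had an unadjusted limma p below 0.61.

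Wild-type replicate 1 was low in many members. It was the lowest of the 3 wild-type arrays in 19 of 31 members, against 42.2% of all tested probe sets, and the mean over members was 8.97 on that array against 9.27 and 9.18 on the other wild-type arrays. On the fosB-null arrays that mean was 9.12, 9.29 and 9.19. Without wild-type replicate 1 the difference was 0.27 for H2ac4, 0.11 for H1f5, 0.07 for H2bc3, 0.04 for H2bc14 and 0.06 for H1f1. The median over the 31 members was then -0.03. A fit without 1 array keeps its same-numbered partner, so it also takes in the spread between replicate numbers. Pairs 2 and 3 hold no array numbered 1. Their differences were 0.71 and -0.02 for H2ac4, 0.52 and -0.01 for H1f5, and 0.39 and -0.06 for H2bc3. For H2bc14 they were 0.27 and -0.15, and for H1f1 0.15 and 0.09. Among members below wild-type, the difference without wild-type replicate 1 was -0.15 for H1f2, -0.17 for H3c15, -0.14 for H2bc4 and -0.10 for H3c4. Other arrays moved H1f2, H2bc4 and H3c15 more. H2bc4 was at -0.06 without wild-type replicate 2 and at -0.33 without wild-type replicate 3, H3c15 at -0.11 without both arrays numbered 1, and H1f2 at -0.33 without both arrays numbered 3.

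Probe sets listed for several histone genes name no single gene. The genes they list include members that also have a probe set of their own, among them H3c15, H3c4, H3c7 and H2bc4. Of the 27, 24 had a mean above wild-type, 2 below and 1 none. The median difference was 0.18, with pair medians of 0.43, 0.14 and -0.01. Some of these probe sets held the same values as another on every array, so the 27 are not independent readings. The 10 listed for 12 H3 genes each gave differences of 0.26 to 0.29. By pair they ran from 0.55 to 0.64, from 0.32 to 0.37 and from -0.17 to -0.10, and limma's unadjusted p ran from 0.16 to 0.21. Because each lists 12 H3 genes, they are not counted as 10 independent readings. Their sign was opposite to that of the 3 H3 members with a probe set of their own, and that difference was not tested. The 10 had wild-type means of 13.06 to 13.35, against 8.10 for H3c15, 8.37 for H3c4 and 4.65 for H3c7. The 7 listed for 14 to 15 H2B genes differed by 0.10 to 0.21, and the 6 listed for H4 genes by -0.01 to 0.11. Wild-type replicate 1 was the lowest wild-type array in 26 of the 27.

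**Figure D4:**
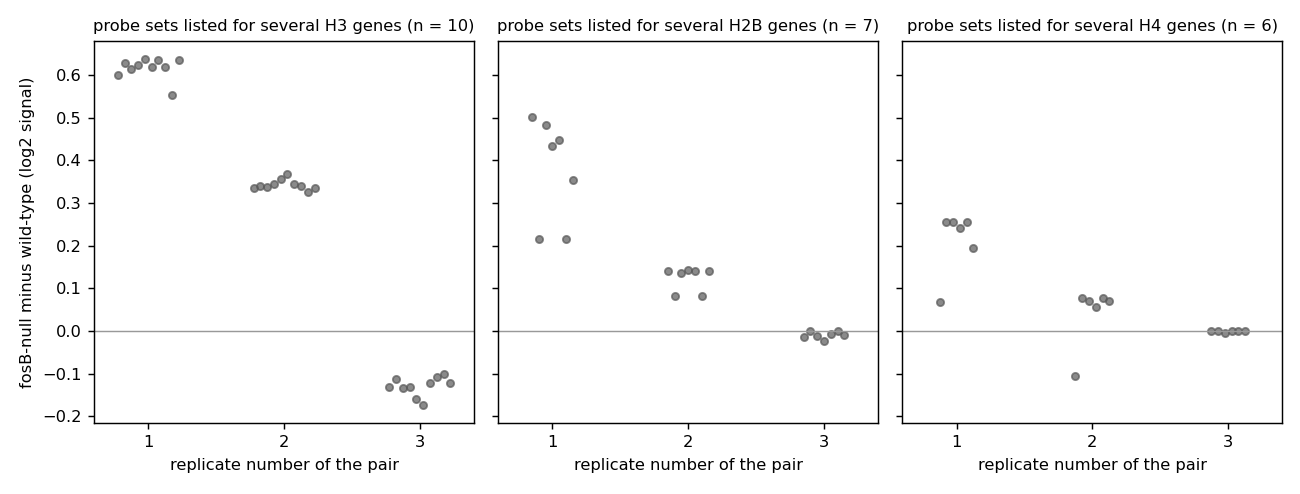
Differences of probe sets listed for several H3, H2B or H4 genes. The x axis is the replicate number of the pair, the y axis fosB-null minus wild-type in log2 signal, and each point is 1 probe set, spread sideways so that all can be seen; H3 probe sets lie at 0.55 to 0.64 in pair 1 and below 0 in pair 3.

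Genes that make, process or place histones were taken as lists, and their calls come from the fit without a block unless a block is named. Of the 20 measured genes for histone messenger RNA processing and histone gene transcription, 0 passed the adjusted or unadjusted test, and the list's median difference was 0. Slbp itself read 9.62, 9.81 and 9.54 in wild-type and 9.62, 9.89 and 9.63 in fosB-null, with overlapping groups and a difference of 0.06 (SE 0.11). Lsm10, a subunit of the U7 small nuclear RNP, differed by -0.05 (SE 0.13). Of 21 histone chaperones, 0 passed the adjusted test and 2 had an unadjusted p under 0.05, beside 0.722% of all probe sets, with a median of 0.03. With the replicate number as a fixed block 0 did, beside 2.31% of all. As a random effect 6 did, all 6 above wild-type, beside 9.63% of all. In neither limma fit did one have an adjusted p under 0.05. The 2 from the fit without a block carry out replication-coupled repair as partners: Mms22l differed by 0.29 (SE 0.11, limma adjusted p = 1) and Tonsl by 0.23 (SE 0.09, limma adjusted p = 1). Asf1b, the chaperone that hands H3 and H4 to newly made DNA, differed by 0.62, 0.82 and 0.02 by pair and by 0.49 on average (SE 0.22).

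Of 13 measured histone genes outside the clusters, 0 passed either test and the median difference was 0. H2ax, which marks DNA breaks when phosphorylated and is made partly in S phase, differed by 0.39, 0.42 and 0.00, with a mean of 0.27 (SE 0.15). The replication-independent H2az1 differed by 0.08 (SE 0.09) and the centromeric H3 variant Cenpa by 0.13 (SE 0.16).

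Replication and mitosis genes had wider differences in pairs 1 and 2 than most histone members, a comparison of values that was not tested. Of 37 DNA replication and S-phase genes, 36 had a mean above wild-type and 1 below, 0 passed either test, and the median was 0.24, with pair medians of 0.24, 0.41 and 0.00. Without fosB-null replicate 2 this median was 0.09, and without both arrays numbered 2 it was 0.11. Without wild-type replicate 1 it was 0.13, and without both arrays numbered 3 it was 0.36. A fit without 1 array keeps its same-numbered partner, so it also takes in the spread between replicate numbers. Pairs 2 and 3, which hold no array numbered 1, had the medians of 0.41 and 0.00. Rrm2, a subunit of ribonucleotide reductase, differed by 0.96, 1.19 and 0.00 (mean 0.72, SE 0.31). All 21 mitosis genes had a mean above wild-type, with a median of 0.57 and pair medians of 0.72, 0.99 and 0.00, 5 with an unadjusted p under 0.05, beside 0.722% of all probe sets, and 0 with an adjusted p under 0.05. This median was 0.34 without fosB-null replicate 2 and 0.35 without wild-type replicate 1, each with the partner array kept. It was 0.36 without both arrays numbered 2 and 0.85 without both arrays numbered 3. Pairs 2 and 3, without arrays numbered 1, had the medians of 0.99 and 0.00. With the replicate number as a random effect, 25 of the 37 replication and 21 of the 21 mitosis genes had an unadjusted p under 0.05, all above wild-type, beside 9.63% of all. As a fixed block these counts were 0 and 1, beside 2.31%, and in neither limma fit did one have an adjusted p under 0.05. Ccnb2, which encodes cyclin B2, differed by 0.78 (SE 0.30, limma adjusted p = 1). For the histone members the mean was 0.15 in pair 1 and 0.02 in pair 2, and for the replication genes 0.33 and 0.44. These means are not like measures of size, because histone members lay on both sides of wild-type. In pair 2, 17 were above and 11 below, against 36 and 0 of the replication genes. Differences of at least 0.2 either way were seen in 11 histone members in pair 1 and 10 in pair 2. For the replication genes these counts were 22 and 31, and over all 23410 tested probe sets 945 and 1553. Wild-type replicate 1 was the lowest wild-type array in 32 of the 37 replication and 20 of the 21 mitosis genes, and the part of these differences in the histone values was not tested.

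**Figure D5:**
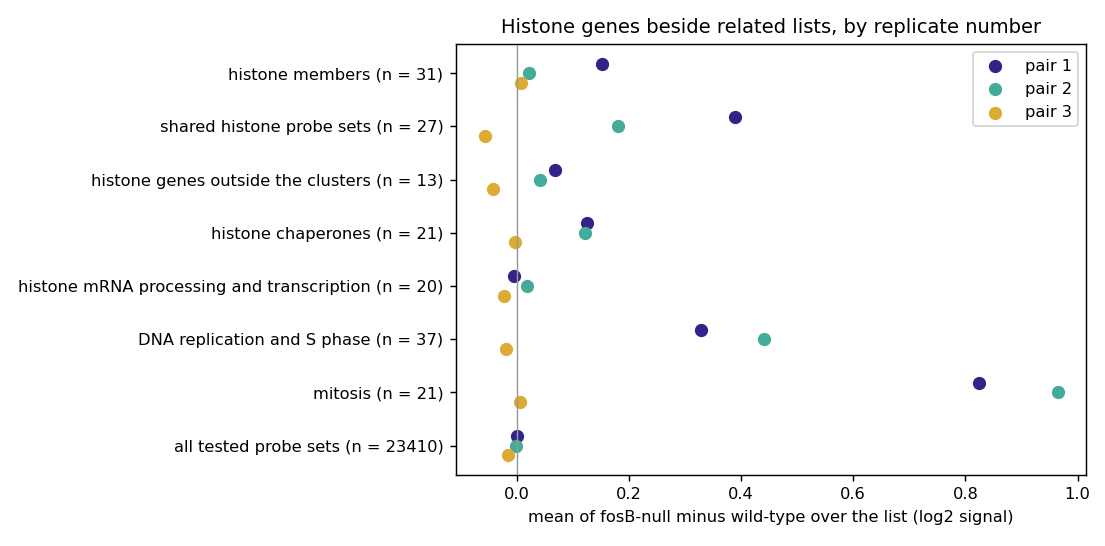
Mean difference of each gene list by replicate number. The x axis is fosB-null minus wild-type in log2 signal averaged over the list, each row a list with its number of probe sets, points the 3 pairs; histone members lie at 0.15, 0.02 and 0.01, mitosis genes at 0.82, 0.96 and 0.01, and all tested probe sets near 0.

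Markers of other cells that a cortical culture could hold had lower median percentiles of signal than the microglial ones, where a percentile ranks brightness and not abundance. Median percentiles of signal were 36.3 for 6 astrocyte markers, 49.6 for 6 of the oligodendrocyte lineage, 34.3 for 5 neuronal, 53.3 for 7 fibroblast and mural and 42.4 for 4 endothelial markers. The summed log2 signal of astrocyte markers ran from 42.7 to 43.5 in both groups. All 6 astrocyte markers held identical values within every pair, so these equal sums are not separate readings of the 2 genotypes. Sums of fibroblast and mural markers ran from 51.8 to 52.8 in wild-type and from 51.9 to 53.1 in fosB-null. Those of the oligodendrocyte lineage ran from 48.98 to 49.97 and from 48.6 to 49.2. Neuronal sums ran from 35.6 to 35.9 and from 35.6 to 35.7, and endothelial sums from 29.5 to 30.2 and from 29.5 to 29.9. Differences of the oligodendrocyte lineage markers ran from -0.21 to 0.02, and 2 of the 6 were at least 0.2 below wild-type in both pairs 1 and 2, beside 0.931% of all probe sets, as were H1f2, H2bc4 and H3c15. These were Mbp, a myelin protein gene, with differences of -0.32, -0.24 and -0.06 and groups that did not overlap, and Cspg4, a marker of oligodendrocyte precursors and pericytes, with -0.36, -0.43 and 0.20. Mbp and Cspg4 were singled out after their values were seen. Of the other lineage markers, Olig1 and Sox10 held identical values within every pair. Olig2 differed only in pair 2, by -0.13, and the precursor marker Pdgfra only in pair 1, by 0.07. None of these markers passed the adjusted test, and their part in the histone values was not tested.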

How the data were processed

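RNA of 6 cultures was amplified from 100 ng of total RNA into biotinylated sense-strand DNA and hybridised to Affymetrix whole-transcript arrays, per the labels' protocols. The deposited values are log2 signals, 1 per probe set and array. The authors made them in Affymetrix Expression Console, as the submitters' processing notes record. Its version, normalization and build remain not given in the sources used here. All values lay between 1.73 and 14.6, with medians between 7.76 and 7.92 per array, from which the scale was inferred to be log2. Of 35557 probe sets, 21789 had 1 gene symbol and 1621 several. These 23410 were tested with limma 3.58.1 under R 4.3.3, by lmFit followed by a two-sided eBayes test with no block and no filter, adjusted by Benjamini-Hochberg at 0.05. The fit was also run on simulated data with independent arrays. Those data held no pairing and no identical values, so that run does not measure how the fit performs here.

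Deviations from group means correlated between same-numbered arrays at 0.91, 0.82 and 0.82, so the numbers pair the arrays. The pairing comes from the values. Same-numbered arrays held identical values in 45.2% to 51.3% of all probe sets, for no recorded reason. Fits with the replicate number as a block were alternatives. Each SE printed is from the fit without a block, which counts spread shared by same-numbered arrays as error. With the fixed block the SE was narrower for some members, as for H1f1 (0.046 in place of 0.11). For others it was wider, as for H1f2 (0.12 in place of 0.10).

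Members and lists were chosen with earlier results of these data known. Named members were, per histone class, the 4 with the lowest p, the 2 with the highest mean and the 1 with the most negative difference, plus testis genes and genes outside Hist1. In each list up to 4 genes with the lowest p, and Slbp, could be named. The list genes not matched to a single-gene probe set were not analysed here. Promoter sequences are RefSeq's, on GRCm38.p6. The number of arrays limits the precision.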

Additional observations from a re-analysis of the deposited data

How the results depend on the processing

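No setting brought a histone gene under an adjusted p of 0.05 in limma, at 0.1 included. The count at an unadjusted limma p under 0.05 was 0, but 4 with array weights. With the random replicate block it was 10, beside 9.63% of all probe sets. It was 2 with the replicate block when only probe sets differing within some pair set the prior, a setting added after seeing the data. With the fixed replicate block it was 0. The block cannot move the median of 0.03 or the count of 3 above wild-type in all 3 pairs, since each pair holds both genotypes. That last count was 7 after quantile normalization and 0 when each pair had to differ by 0.1. Shares over all probe sets were not computed for these 2 settings, the array weights or the changed prior, so their counts are descriptions. The median was 0.0949 with the shared probe sets added, a setting also chosen after seeing the data. Those probe sets are not independent readings. Leaving out arrays or pairs gave 0 adjusted and 0 to 3 unadjusted calls. Medians ran from -0.0312, when wild-type replicate 1 was left out, to 0.108, when wild-type replicate 2 was. Members above wild-type in all remaining pairs numbered 4 to 14, with 14 without replicate 3 of either group. Those 14 stand beside 1928 of the 23410 tested probe sets above wild-type in pairs 1 and 2. For the other left-out arrays such shares were not computed.

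Of 26 named members, 14 kept their direction in every fit with an array or pair left out, and 12 turned in some. These were H1f3 (-0.18 to 0.13), H1f6 (-0.11 to 0.11), H2ac1 (-0.0507 to 0.12), H2ac8 (-0.20 to 0.048), H2aw (-0.055 to 0.0563), H2bc1 (-0.16 to 0.27), H2bc18 (-0.02 to 0.25), H2bu1-ps (-0.11 to 0.14), H2bu2 (-0.0865 to 0.12), H3c7 (-0.19 to 0.0917), H4c6 (-0.0381 to 0.21) and H4f16 (-0.0698 to 0.0842). A fit without 1 array keeps its same-numbered partner, so these ranges also hold the spread between replicate numbers. H2ac1, H2aw, H2bc18, H2bu1-ps and H2bu2 had no pair below wild-type. They turned only where 1 array of a pair was left out. Of 256 gene values under the settings that kept all arrays, 9 turned. Quantile normalization gave -0.0083 for H1f6 and -0.0059 for H2bu2. Median centring gave -0.023 for H2aw, -0.0016 for H4f16, -0.014 for H1f6 and -0.0088 for H2bu2. Array weights gave -0.042 for H1f3, 0.015 for H3c7 and -0.00086 for H1f6. The cause was not tested. Leaving out the lowest 40% of signal kept 26 of the 31 members. With 3 arrays a group, the spread of the wild-type arrays limits what could be called in the fit without a block.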
